A study of Mus musculus with 2 samples.

Results

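Cells of 2 mice given an Fc-enhanced GITR antibody were set against cells of 4 mice that received either no antibody or an antibody with a silent Fc, within each cluster of the deposited cell table. The table has 19210 entries, each with its treatment, cell type and cluster number. An entry was used when its barcode held at least 1000 UMIs (unique molecular identifiers, which count captured RNA molecules) of mouse genes in the deposited matrix, which 8767 entries did. Removing 18 entries whose barcode occurs more than once, and 33 with a top hashtag that did not match their treatment, gave 8716 cells. Of these, 2808 came from the 2 Fc-enhanced mice and 5908 from the 4 others.

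All mice carried human Fc gamma receptors and bore subcutaneous tumours of MC38, a mouse colon carcinoma line, grown from 2000000 implanted cells. Anti-mouse GITR antibodies with a human IgG1 Fc were injected 2 times, 3 days apart, at 100 µg per mouse, and CD45+ cells (cells of blood origin) were sorted from the tumours 4 days after treatment. Cells of the mice were labelled with hashtag antibodies and run as 1 droplet library with 3' counting. The design lists 3 mice per treatment, and 6 mice are in the library. The Fc-enhanced set holds 1 mouse given GA-aFuc, which the table describes as an agonist with an enhanced Fc, and 1 given GITR/Syn GA-aFuc, described as a non-agonist with an enhanced Fc. The other set holds 2 Untreated mice and 2 given N297A, described as an agonist with a null Fc. The control is named PBS in the design text and Untreated in the table, and the labels give no age, no promoter for the receptor transgenes and no meaning for GA or Syn. Each hashtag was taken as 1 mouse, so the spread in the Fc-enhanced set includes the difference between its antibodies.

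GITR, encoded by Tnfrsf18, is a costimulatory receptor of the TNF receptor family that is abundant on regulatory T cells and activated T cells. The Fc part of an IgG binds Fc gamma receptors on NK cells, monocytes, macrophages and dendritic cells, and can direct them against the cell that carries the antibody. Removing fucose from the Fc glycan strengthens binding to the human receptor FCGR3A, while the N297A change removes the glycan and most receptor binding.

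Each mouse gave 1379 to 1519 cells and 16479710 to 19339165 UMIs of mouse genes, with a median of 11259 to 12940 UMIs per cell. Xist and Ddx3y, transcribed from the inactive X and from the Y chromosome, showed that the library holds mice of both sexes. Xist stood at 485 CPM (counts per 1000000 UMIs of the summed cells) in Untreated 1, 506 in N297A 1 and 513 in the GA-aFuc mouse, and at 1.95 to 3.08 CPM in the other three. Both sets thus hold both kinds of mouse, but the antibodies of the Fc-enhanced set cannot be told apart from sex. The clusters were made by the authors from the expression of cells that include these, so the genes that lead a cluster only describe it. A level within a cluster can move with the border that the clustering drew. All defining markers listed for cDC2 (6), NK cells (7), CD8 T cells (7), monocytes (8) and macrophages (8) had UMIs in the cells so named. That is a low bar, which the CD8 T cell marker Cd8a also met in NK cells, so it does not test the names. Every p-value below measures the spread among these 6 mice only.

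Among the 52 clusters of 6 cell types with at least 20 cells, 13 had both Fc-enhanced mice above or below all 4 others in their share of the cell type, which is 25% of the clusters compared. Shares were higher in CD8 T cell cluster 16, macrophage clusters 9, 28 and 45, monocyte cluster 0 and NK cluster 48, and lower in CD8 cluster 23, macrophage clusters 15, 17 and 56, monocyte cluster 22 and NK clusters 19 and 26. With 2 of 6 mice there are 15 assignments, so the exact permutation test (two-sided) cannot go below p = 0.0667, and 7 of the 52 clusters reached that value. The smallest p adjusted over the 52 by Benjamini-Hochberg was 0.495. A count model over the same clusters, edgeR's quasi-likelihood test on cells per cluster with the cells of the type as offset, placed 10 clusters at an unadjusted p under 0.05 and called 0 of 52, or 0%, at an adjusted p under 0.05. Its smallest adjusted p was 0.196. Without Untreated 2 the same model called macrophage cluster 9 (log2 difference 0.84 ± 0.20 SE, adjusted p = 0.00965). No share is therefore described below as a tested change.

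Monocyte cluster 0 held more of the monocytes in the Fc-enhanced mice. Its leading genes against the other monocytes were Nos2, the inducible nitric oxide synthase, at 369 against 29.4 CPM, the elastase Mmp12 and Inhba, a subunit of activin. It made up 10.8%, 10.7%, 9.40% and 10.5% of the monocytes of Untreated 1, Untreated 2, N297A 1 and N297A 2, and 15.7% (GA-aFuc) and 12.9% (GITR/Syn GA-aFuc) of those of the Fc-enhanced mice. This order of mice is kept in all lists of 6 values below. The 4 others lay within a narrow band and both Fc-enhanced mice lay above it, with means of 14.3% ± 1.99 (SD, n = 2) and 10.3% ± 0.633 (SD, n = 4; exact permutation p = 0.0667). The edgeR abundance model gave a log2 difference of 0.46 ± 0.14 (SE) with an unadjusted p of 0.012. As a share of all cells of a mouse, cluster 0 no longer separated the sets (difference of 0.295 percentage points, exact permutation p = 0.533), since monocytes as a whole were 22.7% and 25.8% of the cells in the Fc-enhanced mice and 27.5% to 37.0% in the others.

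**Figure D1:**
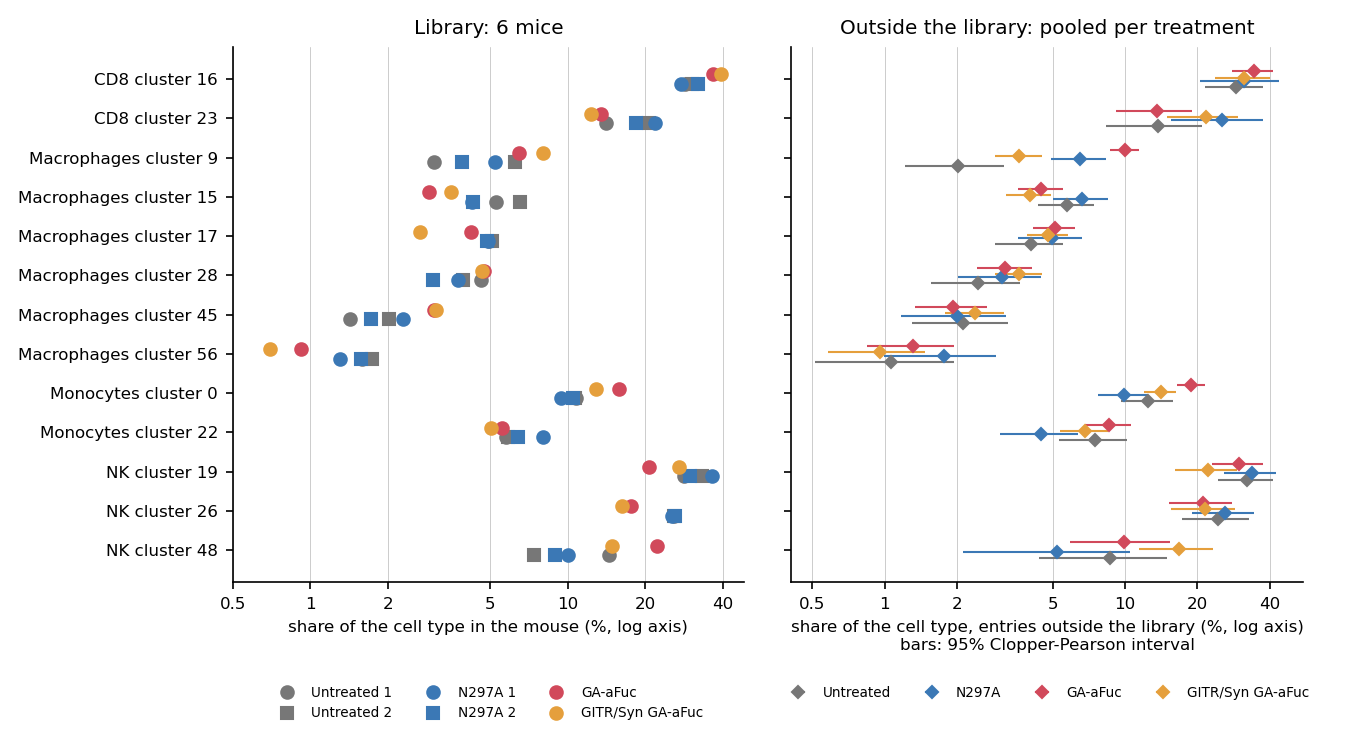
Share of each of the 13 clusters among the cells of its type (percent, log axis), for the 6 mice of the library (left) and for table entries outside the library pooled per treatment (right, bars are 95% Clopper-Pearson intervals). On the left both Fc-enhanced mice (red, orange) lie on 1 side of all 4 others in each row; on the right this holds for 6 of the 13 clusters.

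In NK cells 3 clusters of those with at least 20 cells stood apart, and not in the same direction. Cluster 26, led among others by the chemokine gene Ccl5 and by Itgam, an integrin of mature NK cells, was 25.9%, 25.9%, 25.5% and 26.1% of NK cells in the others and 17.6% and 16.2% in the Fc-enhanced mice (difference -8.96 percentage points, exact permutation p = 0.0667). The 4 others differed by less than 1 percentage point. The chemokine genes Cxcl2, Ccl7 and Ccl2 also led cluster 26, through the cells of the GA-aFuc mouse: Cxcl2 was 1185 CPM there and 6.35 to 15.9 CPM in the other 5 mice, and Ccl2 was 665 against 14.4 to 79.7 CPM. Cluster 19, the largest NK cluster, whose leading genes included the interferon-induced Mx1 and Ifit1, was 28.3%, 33.3%, 36.4% and 29.9% against 20.6% and 27%. The chemokine gene Ccl4 also led cluster 19, through the cells of N297A 1: it was 2377 CPM there and 31.4 to 367 CPM in the other 5 mice. Cluster 48 was 14.5%, 7.41%, 10.0% and 8.96% against 22.1% and 14.9%, where Untreated 1 lay just under the lower Fc-enhanced mouse. Leading genes of cluster 48 included Ifitm1, Ly6c2 and Pdcd1, which encodes PD-1 and stood at 96.8 against 6.12 CPM in the other NK cells. Ncr1, an NK receptor gene, was 151 to 354 CPM there. Other NK markers were far lower, with means over the mice of 17.7 (Eomes), 9.55 (Klra8) and 387 CPM (Gzma). In clusters 19, 20 and 26 those means were at least 135, 203 and 4118 CPM. The T cell gene Cd3g also led cluster 48 but varied from 0 to 739 CPM between mice, with both sets spread over that range. The T cell genes Cd3e and Trac were 0 to 177 and 0 to 139 CPM, each highest in N297A 1, and Cd8a was at most 8.89 CPM. These shares rest on 11 to 29 cells of cluster 48 and 12 to 23 cells of cluster 26 in each Fc-enhanced mouse.

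In CD8 T cells the largest cluster, 16, was 28.6%, 30.5%, 27.6% and 32.1% of the cells in the others and 36.6% and 39.5% in the Fc-enhanced mice (means 29.7% ± 2.00, SD, n = 4, and 38.0% ± 2.08, SD, n = 2; exact permutation p = 0.0667). Cluster 23 was led first by Klra1 and Klra7, genes of NK cell lectin receptors. They stood at 148 and 137 CPM, against 0.733 and 4.37 CPM in the other CD8 T cells. Next came Tcf7, a transcription factor of naive and memory T cells, and S1pr1, the receptor for exit from tissue. Cluster 23 was 14.1%, 20.7%, 21.7% and 18.3% against 13.4% and 12.3%. Untreated 1 lay close to the Fc-enhanced mice there (exact permutation p = 0.133).

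The macrophage clusters that stood apart each held 0.701% to 7.99% of the macrophages of a mouse, where the largest macrophage cluster, 2, held 6.09% to 9.20%. Cluster 9, led by Mmp12 and by the stress genes Hmox1 and Hspa1a, was 3.02%, 6.23%, 5.22% and 3.87% against 6.44% and 7.99%. Clusters 17, 45 and 56, all led by genes of DNA replication or mitosis (Rrm2 and Pclaf, Ccnb2 and Birc5, Cenpf and Cdc20), moved in different directions: cluster 45 was higher (1.43%, 2.03%, 2.28% and 1.72% against 3.02% and 3.09%), and clusters 17 and 56 were lower. Cluster 56 was 1.59%, 1.74%, 1.31% and 1.58% against 0.920% and 0.701%, and cluster 17 was 4.87% to 5.07% against 4.20% and 2.66%. Cluster 15, led by Fcrl5 and Cd300e, was 4.24% to 6.52% in the others and 2.89% and 3.51% in the Fc-enhanced mice. Cluster 28 differed by 0.858 percentage points, and monocyte cluster 22 by -1.21 (exact permutation p = 0.2 for each).

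The entries outside the library, 10443 in all, carry a treatment but no mouse, so their shares have counting error only. Of the 13 clusters, 6 separated the treatments the same way there (macrophage 15 and 28, monocyte 0, NK 19, 26 and 48), 0 did so the opposite way, and 11 differed in the same direction. The 11 is a description only, since the direction of all 52 clusters is not set beside it. Shares within a cell type also depend on each other, because they divide the same cells. Over all 52 clusters, 15 separated the treatments outside the library in either direction, which is 28.8%. Monocyte cluster 0 was 18.9% of monocytes for GA-aFuc (172 of 911) and 14.0% for GITR/Syn GA-aFuc (151 of 1075), against 9.91% for N297A (64 of 646) and 12.5% for Untreated (60 of 481). NK cluster 26 was 21.1% and 21.6% against 26.1% and 24.4%, and cluster 48 was 9.94% and 16.8% against 5.22% and 8.66%. CD8 cluster 16 did not separate (34.3% and 31.3% against 31.3% and 29.0%), macrophage cluster 17 and monocyte cluster 22 differed in the other direction, and macrophage cluster 9 was 9.97% for GA-aFuc but 3.63% for GITR/Syn GA-aFuc, between the 2.02% of Untreated and the 6.49% of N297A.

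Expression was compared in the 21 clusters that had at least 20 cells in every mouse, with UMIs summed per cluster and mouse and tested with edgeR's quasi-likelihood test. Adjusted p-values are by Benjamini-Hochberg within a cluster and a gene was called at an adjusted p under 0.05. There were 130 calls, 102 higher and 28 lower in the Fc-enhanced mice, and 104 of them fell in monocyte clusters 0 and 8 and NK cluster 19. No gene was called in 7 clusters. In every cluster 48.1% to 50.6% of the 4035 to 8261 genes tested had a positive fold change, so fold changes were centred near 0.

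Monocyte cluster 0 was the cluster of higher share, and 33 of its 6170 tested genes (0.535%) were called, 29 higher and 4 lower. Chemokine genes for the neutrophil receptor CXCR2 were among those that rose. Cxcl2 stood at 1519, 1019, 1438 and 989 CPM in the others and 3489 and 5007 CPM in the Fc-enhanced mice. The sets did not overlap, and the lower Fc-enhanced mouse was above the highest other mouse by far more than the others differed among themselves (log2 fold change 1.80 ± 0.21 SE, adjusted p = 0.00895). Cxcl3 gave 0, 0, 1 and 1 UMIs against 42 and 23, a ratio of 63.7 per UMI sequenced with a counting interval of 16.9 to 537 (adjusted p = 1.09e-04). One cell held 32.3% of the UMIs of the Fc-enhanced mice. Here and below, a share of UMIs in 1 cell is of the gene's UMIs in the higher set of mice. Both calls held without each mouse in turn, with adjusted p at most 0.0168 for Cxcl2 and 0.0301 for Cxcl3, while Cxcl2 was not called with a term for the Xist level (adjusted p = 0.0805). In CD8 T cells, set beside them as a comparison for free RNA, Cxcl2 stood at 3.76 to 24.2 CPM and Cxcl3 at 0 to 0.550 CPM.

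F10, F3 and Ptgs2 rose in the same cluster. F10, coagulation factor X, was 177, 141, 158 and 119 CPM against 371 and 318 CPM (log2 fold change 1.24 ± 0.17 SE, adjusted p = 0.00154). F3, tissue factor, which starts coagulation, was 6.88, 10.6, 8.91 and 9.33 CPM against 55.8 and 49.5 CPM (log2 fold change 2.52 ± 0.36 SE, adjusted p = 0.00154), with 39.6% of its UMIs in 1 cell. Ptgs2, the inducible cyclooxygenase, was 395, 238, 263 and 257 CPM against 656 and 522 CPM (log2 fold change 1.06 ± 0.18 SE, adjusted p = 0.00694). No mouse crossed between the sets for these genes. Without the GA-aFuc mouse the calls of F3 (adjusted p = 0.0549) and Ptgs2 (adjusted p = 0.0888) were lost, and that of F10 was not.

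Several called genes encode surface proteins. Cd1d1, which presents lipid antigens to NKT cells, was 13.8, 4.55, 13.4 and 4.67 CPM against 59.8 and 59.3 CPM (log2 fold change 2.77 ± 0.39 SE, adjusted p = 0.00154). Il7r, the alpha chain of the interleukin 7 receptor, was 112, 146, 167 and 88.7 CPM against 317 and 362 CPM (log2 fold change 1.41 ± 0.20 SE). The lectin receptor Clec4d was 266, 247, 327 and 226 CPM against 518 and 588 CPM (log2 fold change 1.08 ± 0.16 SE). Each of these lay above every other mouse in both Fc-enhanced mice, as did Adam8, a membrane metalloprotease (117, 183, 200 and 135 CPM against 448 and 362 CPM; log2 fold change 1.36 ± 0.19 SE). Tnfrsf9, the costimulatory receptor 4-1BB, was 43.6, 12.1, 28.9 and 18.7 CPM against 102 and 83.1 CPM, and its call was lost without the GA-aFuc mouse (adjusted p = 0.0956). Il12rb2, a chain of the interleukin 12 receptor, was 9.18, 4.55, 11.1 and 0 CPM against 33.9 and 59.3 CPM, with 40.4% of its UMIs in 1 cell. Its call was lost without the GITR/Syn GA-aFuc mouse or Untreated 2 (adjusted p up to 0.472).

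Gsr, Glrx, Nfkbia and Lgals3 also rose. Gsr, glutathione reductase, was 108, 77.3, 89.1 and 60.7 CPM against 243 and 194 CPM (log2 fold change 1.41 ± 0.20 SE, adjusted p = 0.00154), and Glrx, glutaredoxin, was 257, 284, 252 and 271 CPM against 562 and 465 CPM (log2 fold change 0.97 ± 0.15 SE, adjusted p = 0.00185). The 4 others lay close together for Glrx, and both calls held without each mouse. Nfkbia, which encodes the NF-kB inhibitor IkB-alpha, was 344, 288, 265 and 343 CPM against 442 and 597 CPM (log2 fold change 0.77 ± 0.16 SE, adjusted p = 0.0322). That call was lost without the GITR/Syn GA-aFuc mouse, N297A 1 or Untreated 2 (adjusted p up to 0.509). Lgals3, galectin-3, rose by 0.65 ± 0.13 (log2, SE; adjusted p = 0.0235), a call lost without 4 of the 6 mice (GITR/Syn GA-aFuc, N297A 2 and both Untreated; adjusted p up to 0.458).

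The 4 genes that fell in cluster 0 were Cxcl10, Plbd1, Ccr2 and Pltp. Cxcl10, an interferon-induced chemokine for T cells, was 1243, 1207, 1338 and 1314 CPM against 705 and 764 CPM (log2 fold change -0.77 ± 0.12 SE, adjusted p = 0.00418). The monocyte chemokine receptor gene Ccr2 was 326, 479, 252 and 369 CPM against 145 and 168 CPM (log2 fold change -1.17 ± 0.22 SE, adjusted p = 0.0201). Plbd1 was 470 to 493 CPM in the others against 257 and 271 CPM. All 4 lay below every other mouse in both Fc-enhanced mice. The calls of Cxcl10 and Plbd1 were lost without the GA-aFuc mouse (adjusted p = 0.07 and 0.0976), that of Pltp without the GITR/Syn GA-aFuc mouse (0.182), and that of Ccr2 without either of them or N297A 2 (up to 0.229). Ccr2 belongs to the 8 monocyte markers, whose summed level in cluster 0 was 3092 to 3126 CPM in the Fc-enhanced mice and 4375 to 5810 CPM in the others, with none at 0, and the 8 macrophage markers summed to 4920 to 5319 CPM against 6009 to 10082 CPM. Their part in the results for cluster 0 was not tested.

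**Figure D2:**
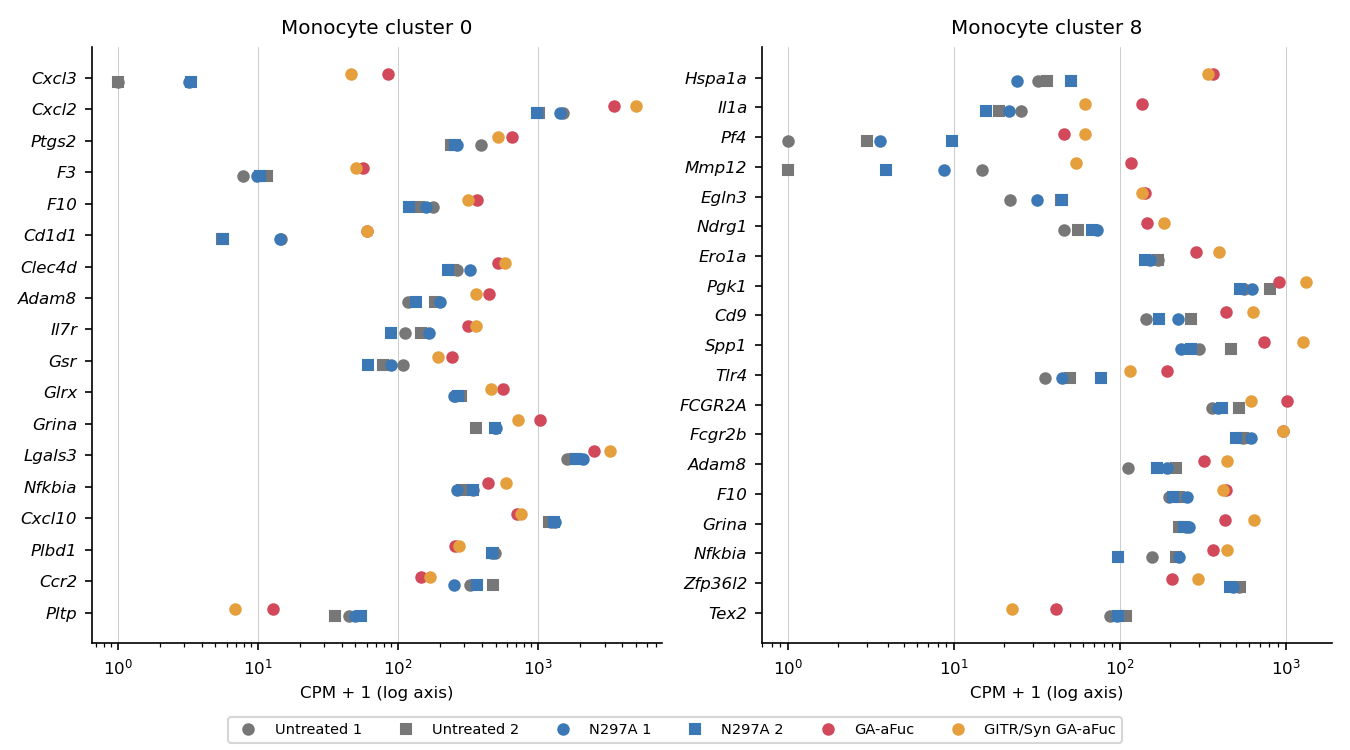
Level of called genes in monocyte clusters 0 and 8 (CPM + 1, log axis), 1 point per mouse. In each row the GA-aFuc (red) and GITR/Syn GA-aFuc (orange) mice lie above the 4 others, or below them for Cxcl10, Plbd1, Ccr2, Pltp, Zfp36l2 and Tex2.

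Nos2 and Arg1, which use arginine in opposite ways in myeloid cells, did not pass the test. Across all monocytes Nos2 was 43.5, 30.7, 51.8 and 49.1 CPM against 156 and 105 CPM (log2 fold change 1.58 ± 0.24 SE, adjusted p = 0.16). In cluster 0 Arg1 was 383, 673, 969 and 574 CPM against 3142 and 1515 CPM (log2 fold change 1.85 ± 0.47 SE, adjusted p = 0.382), and Slc7a11, the cystine transporter of the oxidative stress response, was 232, 136, 256 and 98.0 CPM against 711 and 671 CPM (log2 fold change 1.97 ± 0.32 SE, adjusted p = 0.0569). The sets did not overlap for any of the 3 genes. Slc7a11 also leads cluster 0, so its level can move with the cluster's border. Of the 10 genes that lead cluster 0, Nos2, Inhba, Slc7a11 and Upp1 were higher without overlap both in the cluster and in the monocytes outside it, Mmp12 only outside and Slc7a2 only inside.

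Monocyte cluster 8 had the most calls, 50 of 4808 genes tested (1.04%), 48 higher and 2 lower. Its leading genes were Cxcl3, Slpi, Hmox1 and Spp1. Egln3, Ndrg1, Ero1a and Pgk1 were among the genes that rose. Egln3, a prolyl hydroxylase that marks HIF for degradation, was 20.8, 43.5, 30.9 and 43.8 CPM against 141 and 135 CPM (log2 fold change 2.03 ± 0.32 SE, adjusted p = 0.00158). Both Fc-enhanced mice were far above the highest other mouse, and the call held without each mouse and in the other models run. Ndrg1 was 45.0, 55.3, 72.1 and 67.2 CPM against 146 and 185 CPM (log2 fold change 1.57 ± 0.27 SE), and Ero1a, an oxidase of the endoplasmic reticulum, was 170, 170, 152 and 140 CPM against 287 and 398 CPM (log2 fold change 1.23 ± 0.22 SE; adjusted p = 0.00233 for both). Without the GITR/Syn GA-aFuc mouse both calls were lost (adjusted p up to 0.187 and 0.259). The glycolytic enzyme gene Pgk1 was 561, 802, 628 and 529 CPM against 916 and 1329 CPM (log2 fold change 0.94 ± 0.19 SE, adjusted p = 0.0143), a call lost without 4 of the 6 mice (GITR/Syn GA-aFuc, both N297A and Untreated 1; adjusted p up to 0.394).

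Of the 20 genes listed for hypoxia and glycolysis, 19 were tested in cluster 8, with 3 called higher (Egln3, Pgk1 and Aldoa), 18 of 19 above 0 and a median log2 fold change of 0.57. In cluster 0, 18 of 19 were above 0 with a median of 0.26 and 0 called, and across all monocytes 19 of 19 were above 0 with a median of 0.21 and 0 called. The 15 lipid-associated macrophage genes gave 12 of 13 above 0 in cluster 8 with a median of 1.10 and 3 called, among them Cd9, a tetraspanin, at 142, 267, 224 and 172 CPM against 438 and 632 CPM (log2 fold change 1.5 ± 0.23 SE, adjusted p = 0.00161), and Spp1, osteopontin, at 301, 466, 232 and 269 CPM against 740 and 1268 CPM (adjusted p = 0.0418). Neither gene overlapped between the sets. Cd9 held without each mouse, whereas Spp1 had 27.2% of its UMIs in 1 cell and was lost without N297A 2 or Untreated 1 (adjusted p up to 0.15). Spp1 also stood at 38.5 to 176 CPM in CD8 T cells of the 4 others and 60.0 to 77.1 CPM in those of the Fc-enhanced mice, and it was among the leading genes of CD8 cluster 33.

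Several large fold changes of cluster 8 rested on few cells. Hspa1a, a heat shock protein of the HSP70 family, was 31.2, 35.6, 23.2 and 49.7 CPM against 362 and 337 CPM (log2 fold change 3.41 ± 0.26 SE, adjusted p = 1.02e-09). However, 1 cell held 41.3% of its UMIs in the Fc-enhanced mice. The adjusted p was 0.415 once the top cell of each mouse was left out. Here and below, the top cell is the one with most UMIs of the gene in question, and only its counts of that gene were taken out. Il1a, the alarmin interleukin 1 alpha, was 24.3, 17.8, 20.6 and 14.6 CPM against 136 and 60.4 CPM, with 45.5% in 1 cell (adjusted p = 0.0018, and 0.198 without the top cells). Mmp12 was 13.9, 0, 7.72 and 2.92 CPM against 116 and 53.3 CPM, with 34.2% in 1 cell. For these 3 genes every Fc-enhanced mouse was above every other mouse, and leaving out any 1 mouse kept the call. Hbegf had 55.9% of its UMIs in 1 cell, Mmp13 33.3% and Hsph1 28.6%.

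Tlr4, FCGR2A and Fcgr2b were also called higher in cluster 8, while the 13 genes of activating Fc receptor signalling had 11 members below 0 there and 0 called (median -0.16). Tlr4, the receptor for bacterial lipopolysaccharide, was 34.7, 49.4, 43.8 and 75.9 CPM against 191 and 114 CPM (log2 fold change 1.62 ± 0.31 SE, adjusted p = 0.00474), a call that held without each mouse. FCGR2A, a human activating Fc receptor, was 357, 522, 391 and 412 CPM against 1016 and 622 CPM (log2 fold change 1.02 ± 0.19 SE, adjusted p = 0.00403). Fcgr2b, the mouse inhibitory receptor, was 554, 555, 615 and 499 CPM against 966 and 970 CPM (log2 fold change 0.89 ± 0.16 SE, adjusted p = 0.00371). In both receptors the Fc-enhanced mice lay above all others, and without N297A 2 both calls were lost (adjusted p = 0.0607 and 0.0565). Whether reads of human and mouse receptor genes were split by the shared alignment was not tested. The 2 genes that fell were Tex2, at 86.6, 109, 95.2 and 96.4 CPM against 40.2 and 21.3 CPM, and Zfp36l2, an RNA-binding protein that speeds mRNA decay, at 523, 533, 484 and 461 CPM against 206 and 295 CPM (adjusted p = 0.0254 and 0.0327). Tex2 was lost without 4 of the 6 mice (all but GA-aFuc and Untreated 1; adjusted p up to 0.45) and Zfp36l2 without 5 (all but GITR/Syn GA-aFuc; adjusted p up to 0.139).

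Without N297A 2 cluster 8 had 13 calls, without the GITR/Syn GA-aFuc mouse 24, without Untreated 1 26, without N297A 1 29 and without the GA-aFuc mouse 259. The summed monocyte markers of cluster 8 were 10224 to 11521 CPM in the Fc-enhanced mice and 12870 to 14053 CPM in the others. Their part in these calls was not tested.

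The other monocyte clusters had 1 or 2 calls each. In cluster 7 (1 call of 5461 genes, 0.0183%) Pf4, the chemokine platelet factor 4, was 44.9, 30.8, 59.2 and 39.7 CPM against 222 and 174 CPM (log2 fold change 2.24 ± 0.25 SE, adjusted p = 3.9e-06). It lay above every other mouse by a wide gap, held without each mouse and in the other models run, and stood at 8.17 to 13.9 CPM in CD8 T cells of all 6 mice. In cluster 8 Pf4 was 0, 1.98, 2.57 and 8.76 CPM against 45.3 and 60.4 CPM (adjusted p = 0.00595), with 26.9% in 1 cell, and it was too low to be tested without the GITR/Syn GA-aFuc mouse. In cluster 27 (1 call of 4035 genes, 0.0248%) Cxcl2 was 119, 188, 156 and 145 CPM against 1107 and 728 CPM (log2 fold change 2.56 ± 0.20 SE, adjusted p = 9.11e-10). That call held without each mouse but not without the 5% of cells with the most UMIs (adjusted p = 0.403), and the summed neutrophil markers of cluster 27 were higher too (127 to 212 CPM against 42.9 to 101 CPM), with Mmp9, Ly6g and Retnlg at 0. In cluster 1 (2 calls of 6955 genes, 0.0288%) the tetraspanin Cd81 rose by 0.83 ± 0.16 and Pstpip2 fell by 1.92 ± 0.35 (log2, SE; adjusted p = 0.0385 and 0.0222). Cd81 was lost without any mouse but N297A 1 (adjusted p up to 0.647) and Pstpip2 without any but the N297A mice (up to 0.263).

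Over all monocytes of a mouse, 9 of 10902 genes (0.0826%) were called, all higher, with 56 calls without N297A 1, 26 without the GA-aFuc mouse, 23 without the GITR/Syn GA-aFuc mouse and 14 without Untreated 1. Cxcl1, another ligand of CXCR2, was 0.488, 1.43, 0.223 and 1.31 CPM against 10.8 and 13.5 CPM (log2 fold change 3.73 ± 0.40 SE, adjusted p = 0.00109), with 34.5% of its UMIs in 1 cell. Il1a was 24.7, 18.7, 26.3 and 20.6 CPM against 48.9 and 44.3 CPM (log2 fold change 1.04 ± 0.14 SE, adjusted p = 0.00725). Both sets were tight for Il1a and did not overlap. Grina, a membrane protein linked to protection from cell death, was 169, 180, 195 and 186 CPM against 328 and 298 CPM (log2 fold change 0.77 ± 0.08 SE, adjusted p = 0.00109), and Glrx was 143, 174, 156 and 162 CPM against 249 and 262 CPM (log2 fold change 0.68 ± 0.09 SE, adjusted p = 0.00606). Asb2, part of a ubiquitin ligase, was 3.17, 3.57, 2.23 and 3.13 CPM against 12.2 and 11.8 CPM. These 5 calls held without each mouse. Upp1, Nrp2, Tarm1 and Eeig2 were the other 4 calls, and each was lost without at least 2 mice (adjusted p up to 0.162, 0.336, 0.139 and 0.102). Upp1, uridine phosphorylase, was 60.1, 55.3, 63.4 and 70.0 CPM against 130 and 93.0 CPM, and it leads cluster 0. With each cluster given the same weight in every mouse, all 9 genes kept their direction and their separation, and the median of the differences was 0.911 of that without weighting. Beside them, neutrophil markers summed to 67.8 to 77.2 CPM against 51.3 to 64.2 CPM in monocytes, and their part was not tested.

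The 12 oxidative stress genes gave no call but leaned the same way in several myeloid fits. All 11 tested members were above 0 in monocyte clusters 0 and 8 (median log2 fold change 0.83 in each), in macrophage clusters 3 and 11 (0.36 and 0.62) and over all monocytes (0.42), against medians of all genes within 0.01 of 0. In all macrophages 10 of 11 were above 0 with a median of 0.41, and in NK cells 4 of 10 were, with a median of -0.13. In cluster 8 the 4 members with the smallest p (Slc7a11, Blvrb, Sqstm1 and Hmox1) were above all others in the GITR/Syn GA-aFuc mouse and no higher than the highest other mouse in the GA-aFuc mouse. Hmox1, heme oxygenase 1, was 83.2, 298, 427 and 111 CPM in the others, 397 CPM in the GA-aFuc mouse and 3268 CPM in the GITR/Syn GA-aFuc mouse (adjusted p = 0.427). The 20 inflammatory cytokine and chemokine genes gave 17 of 19 above 0 over all monocytes, with a median of 0.29 and 2 called (Il1a and Cxcl1).

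**Figure D3:**
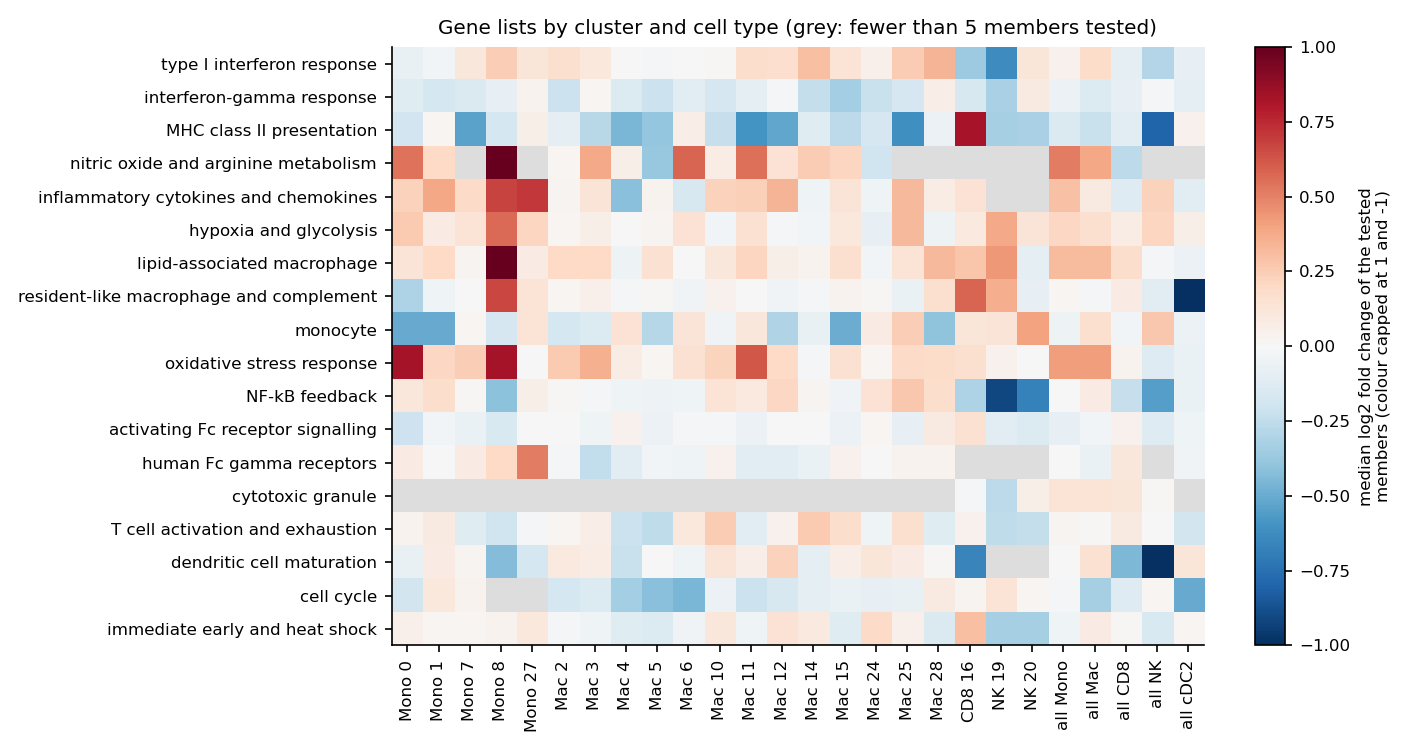
Median log2 fold change of the tested members of each gene list, Fc-enhanced mice over the others, in the 21 clusters and 5 cell types fitted (colour, capped at 1 and -1; grey where fewer than 5 members were tested). Oxidative stress genes are red in monocyte clusters 0 and 8 and macrophage cluster 11, and NF-kB feedback and type I interferon genes are blue in NK cluster 19.

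In NK cells most of the called genes were lower, with 20 of 8629 genes called (0.232%), 5 higher and 15 lower. Of all genes tested there, 50.9% had a positive fold change, 11.4% were lower without overlap and 5.81% were higher without overlap. Pim1, a kinase induced by cytokines through STAT5, was 159, 144, 206 and 166 CPM against 81.8 and 60.1 CPM (log2 fold change -1.15 ± 0.16 SE, adjusted p = 0.00225). Both Fc-enhanced mice lay below every other mouse, and among the named NK calls only this one held in every alternative run. Ccl5, a chemokine of activated lymphocytes, was 2259, 2040, 2868 and 2029 CPM against 829 and 750 CPM (log2 fold change -1.48 ± 0.15 SE, adjusted p = 0.0291), and Ust, a sulfotransferase, was 184, 238, 182 and 207 CPM against 101 and 102 CPM (log2 fold change -0.94 ± 0.14 SE, adjusted p = 0.00295). Ccl5 was lost without either Fc-enhanced mouse (adjusted p up to 0.235) and Ust without the GA-aFuc mouse (0.127). The NK count was 3 without the GA-aFuc mouse, 4 without Untreated 2 and 11 without the GITR/Syn GA-aFuc mouse. The 7 NK markers summed to 5700 to 6408 CPM in the Fc-enhanced mice and 7258 to 8444 CPM in the others. Gzma made up most of that sum, at 4345 and 3667 CPM against 5139 to 5967 CPM. Other markers overlapped between the sets: Ncr1 (246 and 230 against 226 to 268 CPM), Eomes (104 and 146 against 123 to 146 CPM) and Klra8 (164 and 223 against 198 to 247 CPM). The part of the markers in these results was not tested.

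Nfkbia and Nfkbiz fell in NK cells. Nfkbia was 269, 306, 311 and 203 CPM against 144 and 152 CPM, and Nfkbiz, which encodes a nuclear IkB protein, was 75.1, 90.4, 81.6 and 91.7 CPM against 41.8 and 17.2 CPM (log2 fold change -0.82 ± 0.15 and -1.32 ± 0.23 SE, adjusted p = 0.0289 for both). Of the 14 listed NF-kB feedback genes, 12 were tested in NK cells, 3 were called lower (Pim1, Nfkbiz and Nfkbia) and 12 of 12 were below 0, with a median of -0.55. In cluster 19, 10 of 12 were below 0 with a median of -0.91, in cluster 20 11 of 12 with a median of -0.67, and in CD8 T cells 13 of 14 with a median of -0.23. In monocyte cluster 0 the same list gave 8 of 14 above 0. The calls were lost in NK cells for Nfkbia without 4 of the 6 mice (all but the N297A mice; adjusted p up to 0.413) and for Nfkbiz without the GITR/Syn GA-aFuc mouse, N297A 2 or Untreated 2 (up to 0.105).

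Other genes of the NK set were Fos, an immediate early transcription factor (105, 106, 125 and 108 CPM against 62.7 and 62.5 CPM), Il12rb2 (243, 258, 279 and 337 CPM against 172 and 170 CPM) and Smad3, a transducer of TGF-beta signals (88.2, 97.5, 89.8 and 106 CPM against 48.6 and 55.2 CPM). All 3 fell, with log2 fold changes of -0.76 ± 0.15, -0.65 ± 0.13 and -0.84 ± 0.16 (SE; adjusted p = 0.0289, 0.0324 and 0.0289), and each was lost without 3 or 4 mice, both Fc-enhanced mice and Untreated 2 among them (adjusted p up to 0.517). Lgals3 rose from 334, 351, 288 and 326 CPM to 535 and 462 CPM (log2 fold change 0.68 ± 0.10 SE, adjusted p = 0.00295), a call lost without the GA-aFuc mouse (0.212). The 8 macrophage markers summed to 465 to 786 CPM in NK cells of the Fc-enhanced mice and 522 to 999 CPM in the others. Killing genes gave no call: of the 15 cytotoxic granule genes 13 were tested, 7 were above 0 and the median was 0.01. Gzma, granzyme A, was 5139, 5709, 5577 and 5967 CPM against 4345 and 3667 CPM (adjusted p = 0.0505).

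**Figure D4:**
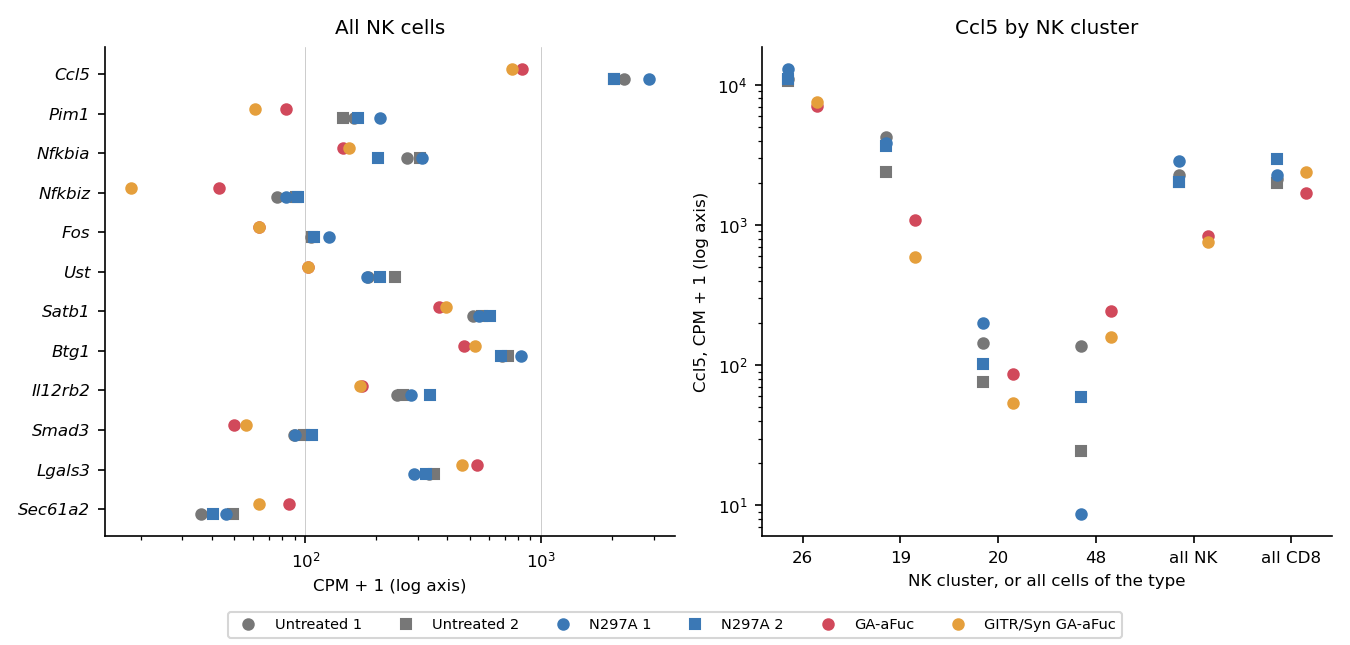
Left, level of called genes over all NK cells (CPM + 1, log axis), 1 point per mouse. Right, Ccl5 in NK clusters 26, 19, 20 and 48, in all NK cells and in all CD8 T cells: the Fc-enhanced mice (red, orange) lie below the 4 others in clusters 26 and 19 and in all NK cells, and above them in cluster 48.

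Part of the NK differences was also seen inside clusters. In cluster 26, which was a smaller share of NK cells in the Fc-enhanced mice and is led by Ccl5, Ccl5 was 11010, 10711, 12938 and 10981 CPM against 7102 and 7553 CPM. In cluster 19 it was 4236, 2408, 3860 and 3693 CPM against 1089 and 590.3 CPM. The sets did not overlap in either cluster. They overlapped in cluster 20, and in cluster 48, where Ccl5 was far lower, the direction was the opposite, at 136, 23.3, 7.70 and 58.02 CPM against 242 and 159 CPM. The small cluster 58 had the same order as cluster 48, at 0 to 34.9 CPM against 83.6 and 42.4 CPM. That order rested on 6, 0, 6 and 8 UMIs against 22 and 3. Untreated 2 had 1 cell there and the GITR/Syn GA-aFuc mouse 4, too few to place that mouse above the others. With each cluster given the same weight in every mouse, the log2 difference of Ccl5 was -0.93 against -1.53 without weighting. All 20 called genes kept their direction and stayed without overlap under equal weights, and the median of the differences was 0.698 of that without weighting.

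NK cluster 19 itself had 21 calls of 4430 genes (0.474%), 8 higher and 13 lower. Ust was 378, 453, 325 and 495 CPM against 160 and 81.6 CPM (log2 fold change -1.67 ± 0.23 SE, adjusted p = 2.85e-06), with no overlap and a call that held without each mouse. Satb1, a chromatin organiser of lymphocytes, was 830, 853, 845 and 762 CPM against 490 and 458 CPM (log2 fold change -0.75 ± 0.16 SE, adjusted p = 0.00811), and Ipcef1 was 152, 193, 203 and 99.0 CPM against 60.7 and 37.7 CPM. Both were lost without the GITR/Syn GA-aFuc mouse, and Ipcef1 also without N297A 1 (adjusted p up to 0.0857 and 0.114). Nfkbia fell in this cluster as well, from 311, 250, 390 and 439 CPM to 139 and 220 CPM (adjusted p = 0.0366), a call lost without the GA-aFuc mouse, both N297A mice or Untreated 1 (up to 0.403). Dbi, Etfb and Ranbp1 rose, by 1.11 ± 0.23, 1.12 ± 0.26 and 1.00 ± 0.23 (log2, SE), and each was lost without the GITR/Syn GA-aFuc mouse or N297A 1, among others (up to 0.362, 0.375 and 0.283). The other 4 that rose beside Mbtd1 were ribosomal protein genes. Without N297A 1 the cluster had 6 calls and without N297A 2 it had 11.

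The 28 type I interferon genes gave no call in cluster 19, where 23 of 23 tested members were below 0 (median -0.63). Members of this list, Mx1, Ifi204, Ifit1, Oasl1 and Oasl2, also lead cluster 19, so their level can move with the cluster's border. Mx1 was 49.5, 101, 106 and 168 CPM against 30.4 and 37.7 CPM (adjusted p = 0.109) and Ifi204 was 113, 202, 150 and 267 CPM against 95.4 and 56.5 CPM (adjusted p = 0.111). N297A 2 was the highest mouse for both and Untreated 1 the lowest of the others. Over all NK cells 22 of 26 were below 0 (median -0.30), whereas over all macrophages 26 of 28 were above 0 (median 0.18), with 0 called in each.

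In NK cluster 20 (4 calls of 6073 genes, 0.0659%) the human receptor FCGR3A, through which NK cells kill antibody-coated cells, was 32.6, 22.3, 47.7 and 15.97 CPM against 108 and 80.5 CPM (log2 fold change 1.81 ± 0.30 SE, adjusted p = 0.00223). Both Fc-enhanced mice were above all others, and the call was lost without the GA-aFuc mouse (adjusted p up to 0.372). Over all NK cells the sets overlapped, at 71.2, 42.2, 182 and 58.1 CPM against 133 and 89.5 CPM, and over all CD8 T cells they overlapped as well, at 48.4, 23.2, 110 and 65.8 CPM against 172 and 86.6 CPM. In each of the 6 mice FCGR3A was thus lower in cluster 20 than over all CD8 T cells. In CD8 cluster 16 FCGR3A was also higher without overlap (log2 fold change 1.30) and was not called. The part of free RNA in these levels was not tested. Lgals3 rose in cluster 20 too (354, 432, 310 and 435 CPM against 604 and 627 CPM; adjusted p = 0.0387), and Nfkbiz fell (39.1, 48.7, 51.1 and 41.9 CPM against 11.3 and 7.55 CPM; adjusted p = 0.0387). Lgals3 was lost without any mouse but Untreated 2 and Nfkbiz without any of the 6 (adjusted p up to 0.372 and 0.375).

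Macrophages were the most numerous type, with 4104 cells, and yielded 0 calls of 12931 genes as a whole (0.0%). By edgeR 766 genes, or 5.92%, lay at an unadjusted p under 0.05. That is near the share the threshold gives without any difference. DESeq2 called 7 genes. Without N297A 1 there were 41 calls, and 0 to 2 without any other mouse. Calls within their clusters were few. Cluster 11 had 8 of 6808 genes called (0.118%), 7 of them higher, and 3 of these were also called in monocyte cluster 0: Clec4d (17.9, 36.8, 30.4 and 21.3 CPM against 56.7 and 121 CPM), Adam8 (152, 174, 276 and 147 CPM against 360 and 371 CPM) and Glrx (132, 184, 162 and 167 CPM against 251 and 321 CPM). The log2 fold changes were 1.70 ± 0.31, 0.95 ± 0.19 and 0.81 ± 0.17 (SE; adjusted p = 0.0199, 0.037 and 0.037), with no overlap between the sets. Each was lost without the GITR/Syn GA-aFuc mouse, N297A 2 or Untreated 1, and Adam8 also without Untreated 2 and Glrx without N297A 1 (adjusted p up to 0.878, 0.183 and 0.836). DESeq2 called 0 genes in cluster 11, and the count by edgeR was 17 without the GA-aFuc mouse, 13 without N297A 1, 4 without N297A 2 and 3 without Untreated 1. Ninj1, a membrane protein that ruptures dying cells, Sdc4, Fmnl2 and Nrg1 were the others that rose.

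FCGR1A, the human high-affinity receptor, fell in 2 macrophage clusters. In cluster 11 it was 138, 124, 70.4 and 123 CPM against 35.2 and 46.2 CPM (log2 fold change -1.5 ± 0.27 SE, adjusted p = 0.0199), and in cluster 6 (3 calls of 6629 genes, 0.0453%) it was 429, 399, 399 and 474 CPM against 267 and 230 CPM (log2 fold change -0.79 ± 0.15 SE, adjusted p = 0.0291). The first call was lost without the GA-aFuc mouse (0.0584) and the other without either Fc-enhanced mouse or N297A 2 (up to 0.375). FCGR1A had a fold change below 0 in all 5 monocyte and all 13 macrophage clusters tested, and its sets did not overlap in 1 and 6 of them. Of all genes tested in a cluster, 4.76% to 12.8% were lower without overlap, with a median of 6.67%. Over all macrophages it was 283, 257, 184 and 271 CPM against 160 and 170 CPM (adjusted p = 0.82), and in CD8 T cells it stood at 5.50 to 13.2 CPM. FCGR2A by contrast was above 0 in all 21 clusters. Il7r rose in cluster 6 from 18.9, 23.0, 34.3 and 24.2 CPM to 85.7 and 76.2 CPM (log2 fold change 1.68 ± 0.26 SE, adjusted p = 0.00403), a call lost without the GA-aFuc mouse (0.116).

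Single genes were called in other macrophage clusters. Cxcl10 fell in cluster 2, the largest (1 call of 7794 genes, 0.0128%), from 204, 236, 208 and 290 CPM to 123 and 93.2 CPM (log2 fold change -1.12 ± 0.18 SE, adjusted p = 0.00906). That call was lost without the GITR/Syn GA-aFuc mouse (adjusted p = 0.325) and without the top cell of each mouse (0.227). In cluster 14 (2 calls of 6355 genes, 0.0315%) Il1a rose from 13.6, 4.75, 3.73 and 5.47 CPM to 52.1 and 42.5 CPM, and the monocyte marker Ly6c2 fell from 99.4, 99.8, 105 and 140 CPM to 52.1 and 29.7 CPM (adjusted p = 0.00203 and 0.0113). Il1a was lost without the GA-aFuc mouse (0.522), and Ly6c2 without the GITR/Syn GA-aFuc mouse, N297A 2 or Untreated 2 (up to 0.455). In cluster 28 (1 call of 5865 genes, 0.0171%) the interferon-induced Ifit2 rose from 101, 89.7, 83.2 and 118 CPM to 252 and 199 CPM (log2 fold change 1.19 ± 0.21 SE, adjusted p = 0.0104), a call lost without the GA-aFuc mouse or N297A 1 (up to 0.429). Type I interferon genes in cluster 28 were above 0 in 25 of 28 cases with a median of 0.34. In cluster 3 (2 calls of 6968 genes, 0.0287%) Ms4a4a rose from 13.8, 17.9, 29.4 and 17.6 CPM to 60.6 and 69.5 CPM (adjusted p = 0.0387), lost without any mouse but N297A 1 (up to 0.305).

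Cell cycle genes in macrophages leaned downward without a call: 23 of 24 were below 0 over all macrophages (median -0.33), as were 20 of 22 in cluster 4 (median -0.34) and 13 of 14 in cluster 5 (median -0.42). H2az1, a histone variant, was 747, 795, 703 and 754 CPM against 636 and 584 CPM, without overlap (adjusted p = 0.822). Interferon-gamma genes were below 0 in 18 of 19 cases over all macrophages (median -0.13), and the 13 genes of activating Fc receptor signalling in 9 of 13 (median -0.03).

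**Figure D5:**
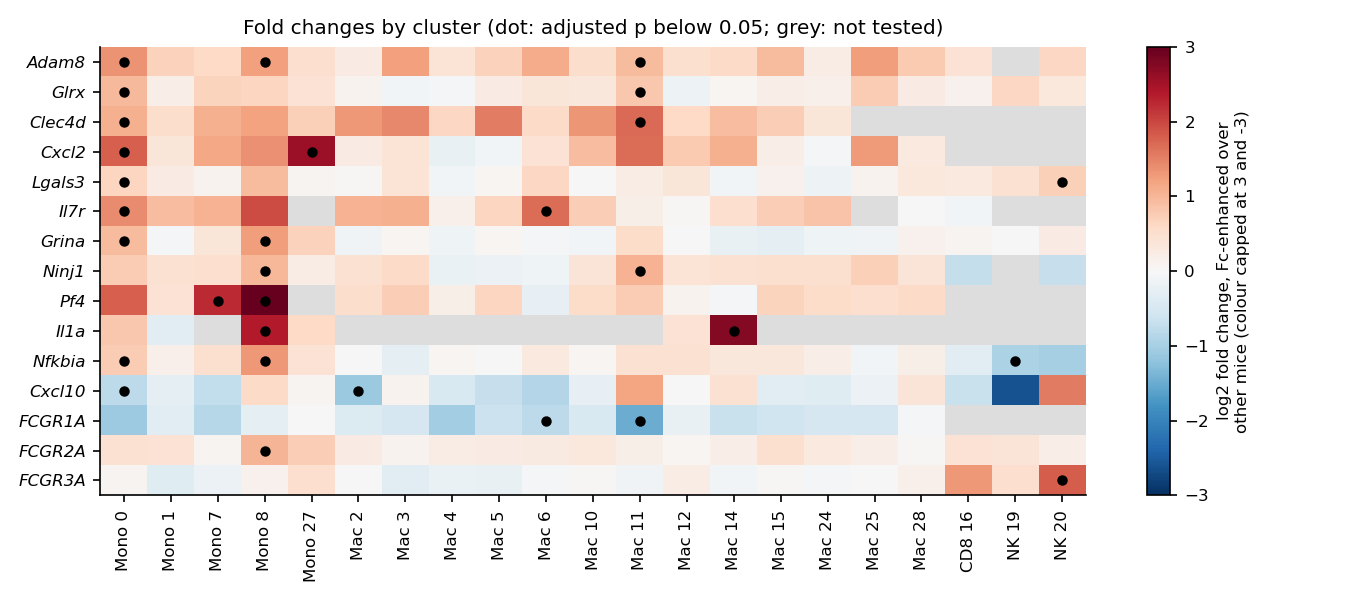
Log2 fold change, Fc-enhanced mice over the others, of genes called in more than 1 cluster and of the human receptors, in the 21 clusters fitted (colour, capped at 3 and -3; a dot marks an adjusted p under 0.05; grey, not tested). Adam8 is above 0 in all 20 clusters where it was tested, FCGR1A is below 0 in all 18, and Nfkbia has dots of both colours.

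Some genes recurred across clusters. Adam8 was called in 3 clusters (0, 8 and 11) and was above 0 in all 20 where it was tested, with both Fc-enhanced mice above all others in 9. A share of 4.89% to 10.1% of all genes tested in a cluster was higher without overlap, with a median of 7.43%. The share lower without overlap was 4.76% to 12.8%, with a median of 6.67%. Glrx was higher without overlap in 5 of 5 monocyte clusters and in 3 of 13 macrophage clusters, and Cxcl2 in 4 of 5 and 3 of 13. Cxcl10 was lower without overlap in 5 of the 21 clusters and higher in 1. These counts are descriptions, since the genes were picked for their calls and the clusters share the 6 mice.

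CD8 T cells gave 0 calls of 9179 genes (0.0%), and DESeq2 gave 1 call. By edgeR 361 genes, or 3.93%, lay at an unadjusted p under 0.05. That is no more than the threshold gives without any difference. Without the GA-aFuc mouse there were 12 calls, without the GITR/Syn GA-aFuc mouse 7, and 0 or 1 without any other mouse. In cluster 16 the single call of 6407 genes (0.0156%) was a sex-linked predicted gene, which is not described. Activation and exhaustion genes lay close to 0: of the 18 listed, 17 were tested, 10 were above 0 and the median was 0.09. Pdcd1 was 336, 312, 296 and 312 CPM against 357 and 379 CPM, and Cd44, an adhesion receptor of antigen-experienced T cells, was 302, 269, 263 and 254 CPM against 360 and 325 CPM. Both genes lay above all others in both Fc-enhanced mice and neither passed the test (adjusted p = 1).

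In cDC2, the dendritic cells that present antigen to CD4 T cells, 1 of 5191 genes (0.0193%) was called, with 8 calls without the GA-aFuc mouse and 3 without the GITR/Syn GA-aFuc mouse. Ccl22, a chemokine that draws CCR4-bearing T cells, among them regulatory T cells, was 23.8, 8.33, 14.8 and 9.03 CPM against 113 and 70.0 CPM (log2 fold change 2.68 ± 0.39 SE, adjusted p = 0.00344). It lay above every other mouse in both Fc-enhanced mice and was at 0 in CD8 T cells of all 6 mice. One cell held 25.7% of its UMIs, the call was lost without the GA-aFuc mouse (0.178) and without the top cell of each mouse (0.268), and Ccl22 also leads cDC2 cluster 36. That cluster, the largest of the type, did not differ in share beyond the spread of the mice (difference -8.69 percentage points, exact permutation p = 0.467). Of the 15 dendritic cell maturation genes 9 were tested in cDC2, with 6 above 0 and a median of 0.12.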

How the data were processed

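The authors' deposited matrix holds raw UMI counts for every barcode, with human (GRCh38) and mouse (GRCm39) genes side by side, from Cell Ranger 9.0.0, per the file headers and the submitters' processing notes. Demultiplexing, filtering, clustering and cell type naming are not given in the sources used here. Clusters and types are those of the authors' deposited cell table, and cluster identities were read from leading genes only. No doublet caller was run; the top hashtag held at least 79.9% of hashtag UMIs in 99% of cells, which does not show doublets within a mouse, and the 5% of cells with most UMIs were left out as an alternative.

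Mouse genes and the human Fc gamma receptor genes were summed per mouse in clusters and cell types with at least 20 cells in each mouse. edgeR 4.0.16 (R 4.3.3, limma 3.58.1) fitted 2 against 4 mice with TMM, filterByExpr and the robust quasi-likelihood test (4 residual degrees of freedom). Adjusted p-values are Benjamini-Hochberg within a fit, threshold 0.05. DESeq2 1.42.0 was an alternative. CPM is not length-scaled; with 3' counting, levels were compared between mice and not between genes. The fit was tested on simulated data.

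Named genes were up to 10 per direction and fit with the largest fold change among called genes whose mice did not overlap and whose higher set averaged 10 CPM or more, without antigen receptor, mitochondrial, ribosomal and sex-linked genes, plus up to 4 members per list by p; others of the 160 calls named here were chosen after their values were seen. The 18 gene lists hold 284 genes, 0 unmatched. The members, lists and tests were chosen with earlier results of these data known. A term for the Xist level and equal cluster weights were added after seeing the data. No chromosome positions are given.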

Additional observations from a re-analysis of the deposited data

Results flagged for a closer look

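Of 104 groups of 4 mice that were checked, 2 held a mouse far from the other three; a gap this wide arises by chance in about 1 in 20 groups. Ly6c2 in macrophage cluster 14 was 99.4, 99.8 and 105 CPM in Untreated 1, Untreated 2 and N297A 1 and 140 CPM in N297A 2, a gap of 0.876 of the range of the 4. Fos in NK cells was 105, 106 and 108 CPM in Untreated 1, Untreated 2 and N297A 2 and 125 CPM in N297A 1, a gap of 0.871 of the range.

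Genes called in opposite directions in 2 cell populations were also singled out. Nfkbia was higher in the Fc-enhanced mice in monocyte clusters 0 and 8 and lower in NK cluster 19 and over all NK cells. The log2 difference between the sets was larger in cluster 0 than in cluster 19 by 1.69 and than in NK cells by 1.59, and larger in cluster 8 by 2.23 and 2.13. Il12rb2 was higher in cluster 0 and lower in NK cells, with a difference of 3.86 between the log2 differences, and 1 cell held 40.4% of its UMIs in the Fc-enhanced mice of cluster 0. In an exact permutation test over the 6 mice each of these had p = 0.0667, the smallest that 15 assignments allow. Choosing opposite calls fixed the direction and nearly fixed this p, since the sets were already apart in both populations. The p therefore adds no support.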

How the results depend on the processing

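The 130 calls within clusters became 473 with no filter on low counts, 211 with a term for the Xist level (added after seeing the data), 65 with adjustment over all clusters together and 71 to 358 without 1 mouse. The 30 calls within cell types became 387, 78, 10 and 14 to 119 in the same order, and 65 with DESeq2. Cluster 0 went from 33 calls to 126 with no filter, 67 with the Xist term and 17 with the joint adjustment. Cluster 8 went from 50 to 104, 86 and 17, to 82 with a 4-treatment model and to 31 without the top cell of each mouse (13 to 259 without 1 mouse), and cluster 19 from 21 to 6 with the joint adjustment, 32 with 4 treatments, 9 without the 5% of cells with most UMIs and 11 without the top cells (6 to 28 without 1 mouse). Monocytes went from 9 to 177 with no filter, 20 with 4 treatments, 48 with the Xist term, 37 with DESeq2 and 5 with the joint adjustment (8 to 56 without 1 mouse), and NK cells from 20 to 71 with no filter, 6 with 4 treatments and 3 with the joint adjustment (3 to 20). The cause of these shifts was not tested. Of 87 named calls, 17 held without each mouse, 10 held under every alternative and none reversed. RLE size factors moved the median of all genes by at most 0.00771. Clusters whose shares did not overlap numbered 15 to 25 without 1 mouse and 16 as shares of all cells, with 7 of the 13 kept; the abundance model called 0 or, without Untreated 2, 1. No paired analysis was possible because the labels give no replicate numbers that pair mice across treatments; the fit with the Xist term is the nearest to a block. Clusters with few cells limit precision, and 15 named calls had over 25% of their UMIs in 1 cell.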
